A study of Mus musculus with 74 samples.

Results

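The comparison is between morulae and the inner cell mass (ICM) of blastocysts, both cloned in the mouse by somatic cell nuclear transfer (SCNT). Its members were chosen by their labels, as the H3K9me3 precipitates of the SCNT morula and the SCNT ICM, and they number 8 of the 74 libraries of the series. Of these 8, 6 came from morulae and 2 from ICM, with 5 and 2 input libraries beside them. In both groups the embryos were built from enucleated B6D2F1 (BDF1) oocytes that received the nucleus of a cumulus cell, and they were activated with strontium chloride and cytochalasin B, so no agent or genotype distinguishes the groups. The ICM was separated from the trophectoderm (TE) of E4 blastocysts by micromanipulation, and TE that remained attached cannot be seen in these data, because peaks of a repressive mark do not show which genes a cell expresses. The authors pooled the libraries of a group and reduced every pool to an equal read number before calling peaks, so each group is a single peak list, no value has a replicate error, and no test between the groups could be run.

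H3K9me3, trimethylated lysine 9 of histone H3, marks constitutive heterochromatin and is bound by HP1 proteins. In the early embryo much of it is laid down by the methyltransferase SETDB1, which is brought by TRIM28 and KRAB zinc finger proteins to retrotransposons and to some zinc finger genes. SETDB1 also acts at CpG-rich promoters of germline genes, where the repressor complex PRC1.6, containing MGA, MAX and E2F6, recognises short DNA motifs. Between the morula and the blastocyst the embryo separates its first lineages, and the ICM gives rise to the epiblast and the primitive endoderm.

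Example sequences from promoters and peaks of the comparison are shown first. The 5 promoters below belong to germline genes whose promoter was marked in ICM and not in the morula, and they are those for which at least 200 of the 250 bases before the RefSeq start lie outside annotated UTRs, with at least 75% of these in an ICM peak and none in a morula peak. Sequences are from RefSeq (GRCm38.p6, the same build as mm10) and run 5′ to 3′ in the direction of the gene. Capitals mark the E-box CACGTG, which MAX-containing dimers bind, and the E2F6 motif TCCCGC on either strand.
Sycp3 (chr10:88459337-88459568, plus strand): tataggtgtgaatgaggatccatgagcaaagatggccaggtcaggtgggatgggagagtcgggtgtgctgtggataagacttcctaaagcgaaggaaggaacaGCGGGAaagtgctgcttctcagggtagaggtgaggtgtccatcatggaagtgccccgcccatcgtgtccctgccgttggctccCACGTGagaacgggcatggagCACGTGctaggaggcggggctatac
Mael (chr1:166238748-166238994, minus strand): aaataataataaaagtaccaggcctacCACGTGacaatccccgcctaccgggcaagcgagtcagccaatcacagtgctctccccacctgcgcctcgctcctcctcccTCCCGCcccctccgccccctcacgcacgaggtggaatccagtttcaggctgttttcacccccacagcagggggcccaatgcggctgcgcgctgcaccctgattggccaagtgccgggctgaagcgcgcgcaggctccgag
Hormad1 (chr3:95559427-95559676, plus strand): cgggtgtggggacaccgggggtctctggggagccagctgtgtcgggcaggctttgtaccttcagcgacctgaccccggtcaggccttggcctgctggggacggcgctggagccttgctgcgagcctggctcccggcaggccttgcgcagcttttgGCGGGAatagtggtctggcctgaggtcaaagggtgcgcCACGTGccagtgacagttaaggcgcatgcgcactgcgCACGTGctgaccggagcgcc
Slc25a31 (chr3:40708621-40708854, plus strand): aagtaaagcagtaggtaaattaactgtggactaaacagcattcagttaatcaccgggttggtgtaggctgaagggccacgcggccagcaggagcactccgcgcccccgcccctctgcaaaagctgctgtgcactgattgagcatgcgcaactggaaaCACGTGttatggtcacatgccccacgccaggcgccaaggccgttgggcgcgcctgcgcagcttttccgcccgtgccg
Tdrkh (chr3:94412994-94413243, plus strand): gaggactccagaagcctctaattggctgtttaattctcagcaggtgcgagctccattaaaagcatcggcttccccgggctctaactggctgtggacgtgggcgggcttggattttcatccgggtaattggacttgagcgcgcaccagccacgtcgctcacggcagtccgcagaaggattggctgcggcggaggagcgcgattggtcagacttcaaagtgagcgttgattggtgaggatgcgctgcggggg
Sycp3 and Hormad1 held 2 E-boxes each, Mael and Slc25a31 held 1, and Tdrkh, the promoter most widely covered in ICM, held neither motif.

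Of the peaks of at least 1 kb that no peak of the other list overlapped, the ICM peak of highest fold lay in an intron of Kdelr2, and the widest of the 3 leading morula peaks was intergenic on chromosome 5. Among peaks of at least 1 kb that overlapped one in the other list, the second highest in the morula lay in an intron of Arsb. The central 300 bases of these 3 peaks follow, with CpG dinucleotides in capitals.
Kdelr2 intron, ICM only (chr5:143414278-143414577, plus strand): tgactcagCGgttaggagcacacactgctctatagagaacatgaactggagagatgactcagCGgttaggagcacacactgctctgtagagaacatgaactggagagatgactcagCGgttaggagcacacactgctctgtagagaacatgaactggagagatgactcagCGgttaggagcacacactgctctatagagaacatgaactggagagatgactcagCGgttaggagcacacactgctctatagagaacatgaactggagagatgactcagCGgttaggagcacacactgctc
Intergenic, morula only (chr5:119127411-119127710, plus strand): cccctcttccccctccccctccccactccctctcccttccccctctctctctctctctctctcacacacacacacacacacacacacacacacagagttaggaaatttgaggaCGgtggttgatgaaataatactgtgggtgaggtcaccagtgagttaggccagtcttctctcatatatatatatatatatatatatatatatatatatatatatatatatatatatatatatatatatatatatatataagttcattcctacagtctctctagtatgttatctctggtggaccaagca
Arsb intron, both lists (chr13:93841882-93842181, plus strand): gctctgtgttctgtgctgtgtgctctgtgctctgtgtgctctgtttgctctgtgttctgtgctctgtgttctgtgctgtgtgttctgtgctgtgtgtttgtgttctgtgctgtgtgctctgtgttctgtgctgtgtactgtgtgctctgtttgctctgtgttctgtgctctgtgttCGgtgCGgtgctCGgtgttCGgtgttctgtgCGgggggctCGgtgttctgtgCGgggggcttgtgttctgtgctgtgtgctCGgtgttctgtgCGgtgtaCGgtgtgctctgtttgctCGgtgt
The Kdelr2 peak (chr5:143413497-143415359, 1863 bp) had a fold enrichment over input of 6.95 in ICM, and it spans a tandem repeat with 6 CpGs in the stretch shown. Peaks covered 83.0% of it in cumulus cells (CC), 48.2% at 6 h post activation (6 hpa) and 100% in TE, and no peak touched it from 14 hpa to the morula. The intergenic morula peak (chr5:119126516-119128606, 2091 bp, fold 6.87) held simple repeats with 1 CpG in the stretch shown. It was covered to 60.2% at the 8-cell stage and had no peak in ICM, TE or CC. The Arsb peak (chr13:93840354-93843709, 3356 bp) was fully covered in the morula, ICM and TE and to at least 54.5% in each of the 10 lists of the series, with a fold of 8.62 in the morula and 3.87 in ICM. The strongest morula peak without an ICM peak, of fold 11.5 and 1064 bp, lay over an annotated UTR of Spin1 on chromosome 13, and its bases are not shown.

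The extent of the mark was taken from the peaks on the 19 autosomes. The morula list held 183163 peaks covering 188 Mb and the ICM list 134555 peaks covering 154 Mb, or 7.86% and 6.43% of the assembled autosomes. The ratio of ICM to morula length was 0.818, and it was below 1 on each of the 19 autosomes, from 0.7504 on chromosome 11 to 0.943 on chromosome 10 (mean 0.824 ± 0.0562, SD over 19 autosomes, which describes evenness along the genome and not replicate error). Median peak width was 614 bp in the morula and 649 bp in ICM, and the median fold was 2.98 and 3.01. The median −log10 q of the peaks was 2.48 in the morula and 3.23 in ICM. The lists thus differed in number of libraries, in length and in peak strength together, and the part of library number and of signal-to-noise ratio in the shorter ICM list was not tested.

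The fate of the marks was followed in 1-kb windows, with a window taken as marked if 50% or more of its bases lay in peaks. The morula list marked 167664 of 2395928 windows and the ICM list 139555, and 91237 were marked in both. Of the morula windows, 45.6% were not marked in ICM (Wilson 95% interval 45.3 to 45.8%), and of the ICM windows 34.6% were not marked in the morula (34.4 to 34.9%). As shares of all windows, 3.19% were marked in the morula only and 2.02% in ICM only. These are 76427 and 48318 windows. With the morula list trimmed to the ICM length by removing its weakest peaks, they became 55919 and 52397 by −log10 q and 56483 and 53736 by fold. Lists of equal length mark nearly equal numbers of windows, so the trim brings these counts together by construction. It cannot show where the asymmetry comes from. Here and below the intervals cover counting error only and treat neighbouring windows as independent, which they are not. Absence of a peak means that the mark did not pass the caller's threshold, which is not evidence that it was missing.

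Retention of the mark rose with the fold and the width of the peak. Windows were ranked by the fold of their morula peak and cut into 5 classes of equal size. In the lowest class 22.4% were marked in ICM, and the shares in the next classes were 34.0%, 53.2% and 73.9%, up to 88.6% in the highest. TE gave 20.7% in the lowest and 86.3% in the highest. The same ranking of ICM windows by ICM fold was flatter, from 47.52% marked in the morula in the lowest class to 84.7% in the highest. Of morula peaks under 500 bp, 68.2% overlapped no ICM peak, against 0.831% of those of 5 kb or more. A wider peak has more bases that can meet another peak, so this share falls with width in part by construction. By length, 26.6% of the bases in morula peaks under 500 bp lay in ICM peaks, against 82.4% in those of 5 kb or more. The wide peaks were nearly as many in both lists, 3850 in the morula and 3970 in ICM, where they covered 27.8 and 29.8 Mb.

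**Figure D1:**
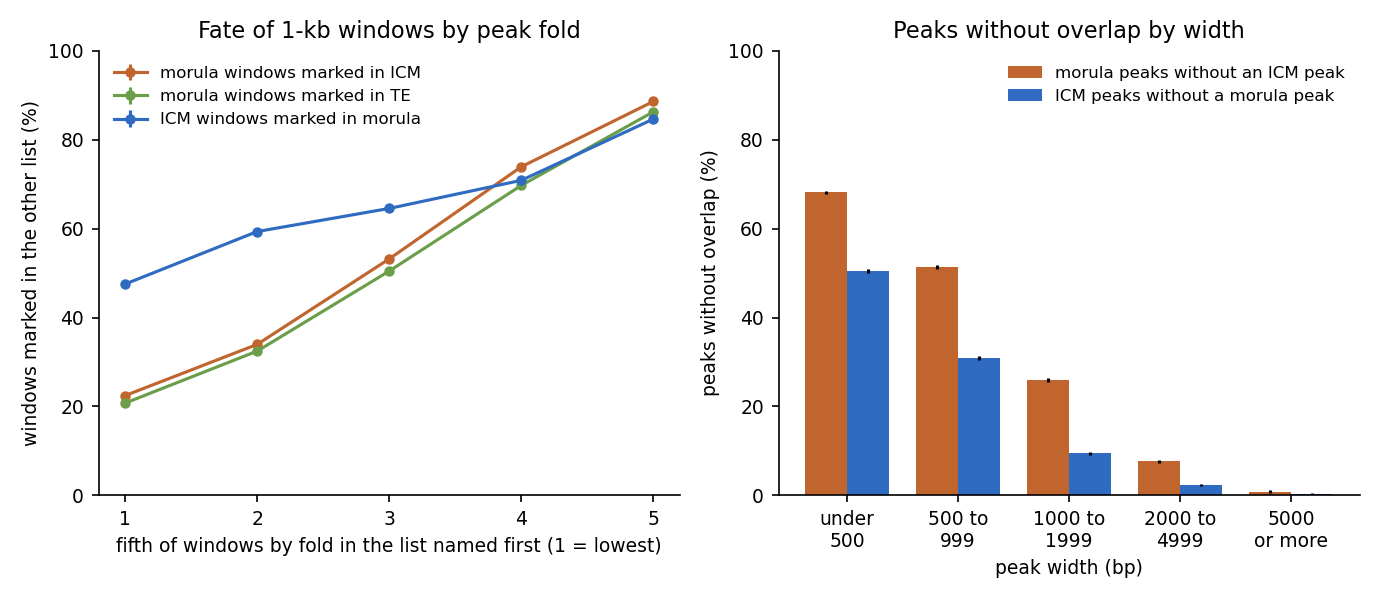
Left, share of 1-kb windows (y axis, %) marked in the other list, by 5 equal classes of fold (x axis) in the list named first. Right, share of peaks (y axis, %) that no peak of the other list overlaps, by peak width in bp (x axis). Points and bars are pooled lists with Wilson 95% intervals, most of which are smaller than the symbols. Retention of morula windows in ICM rises from 22.4% to 88.6%, and peaks without overlap fall from 68.2% to 0.831% of morula peaks. Wider peaks meet a peak of the other list more easily.

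Many of the differing windows touched a peak that overlapped the other list at some point, though movement of peak edges was not measured. Among morula-only windows 56.0% touched a morula peak that overlapped an ICM peak, and among ICM-only windows 75.6% touched an ICM peak that overlapped a morula peak. No ICM base lay in 58.4% of the morula-only windows, whereas no morula base lay in 39.2% of the ICM-only windows. Where both lists marked a window, their strength was nearly the same. Over the 91237 shared windows the median log2 ratio of ICM to morula fold was 0.03, and 1.37% of the windows were at least 1.5-fold higher in ICM and 0.900% at least 1.5-fold higher in the morula.

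The windows differed in sequence content. Soft-masked bases, the lower-case repeats of the reference, made up a median of 76.4% of shared windows, 56.5% of ICM-only windows, 30.4% of morula-only windows and 24.9% of all windows. In windows with less than 50% soft-masked bases, 62.8% of the morula windows were not marked in ICM and the ratio of ICM to morula windows was 0.641. In windows with 50% or more, 29.2% were not marked in ICM and the ratio was 1.01, and in windows with 90% or more, the ICM list held 53575 windows against 48732 in the morula. With the morula list trimmed to the ICM length by removing its weakest peaks, the shares of morula windows not marked in ICM were 56.5% and 24.4% for windows below 50% and of 50% or more soft-masked bases. Soft-masking does not name repeat families.

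GC content separated the classes as well. The median GC content was 42.2% in ICM-only, 44.3% in morula-only and 45.2% in shared windows, against 41.7% in all windows. Below 35% GC the ICM list held 1278 windows and the morula list 891, a ratio of 1.43, and between 35 and 40% GC the ICM list was also the longer. From 40% GC upward the morula list was the longer in every class, with the lowest ratio, 0.733, in the class just below 50% GC. Windows below 40% GC made up 33.3% of the ICM-only windows and 16.5% of the morula-only windows. In 100-kb bins grouped into 5 equal classes by GC content, the ratio of ICM to morula coverage was 0.905 in the lowest and 0.699 in the highest class. Sequencing libraries can differ in their GC bias, whose part in these ratios was not tested.

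**Figure D2:**
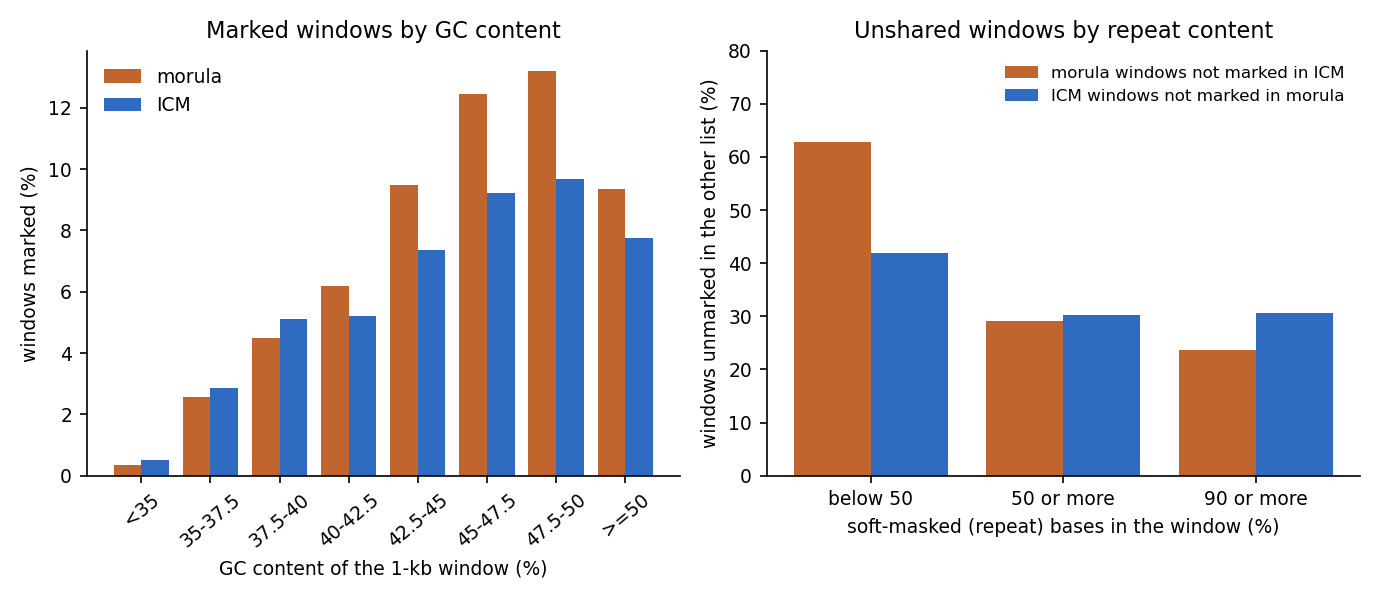
Left, share of all 1-kb autosomal windows (y axis, %) marked in the morula and ICM lists by GC content of the window (x axis, %). Right, share of each list's windows (y axis, %) not marked in the other list, by soft-masked bases of the window (x axis, %). Each bar is 1 pooled list. Morula exceeds ICM from 40% GC upward and ICM exceeds morula below it, and 62.8% of the morula windows low in repeats have no ICM mark against 23.6% of those with 90% or more.

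Short motifs were counted in the same windows on either strand. TGCCGC, the hexamer bound by the zinc finger protein ZFP57 when methylated, occurred in 15.7% of shared windows, 6.35% of morula-only windows, 5.60% of ICM-only windows and 5.89% of all windows. Among windows close to 45% GC the shares were 16.2%, 6.28%, 7.06% and 6.89%, so shared windows stood above the others at like GC content. The hexamer contains a CpG, and CpG density was not matched. Its median per kb was 11 in shared, 7 in morula-only, 8 in ICM-only and 7 in all windows. A run of 9 CA dinucleotides occurred in 4.64% of shared, 9.53% of morula-only and 6.24% of ICM-only windows, against 10.1% of all windows. These are matches of letters and not bound sites.

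To place the windows in the course of development, they were looked up in the other lists. Windows marked in ICM only were marked in the 8-cell list in 16.3% of cases, in the 4-cell list in 17.9% and in the 2-cell list in 15.6%, but in CC in 35.8%, at 14 hpa in 35.2% and in TE in 41.2%. Morula-only windows had the opposite order of 8-cell and TE, with 37.7% marked at the 8-cell stage and 19.7% in TE, and 28.8% were marked in CC. Shared windows were marked in TE in 78.9% of cases and at 14 hpa in 69.1%. Of all windows 8.25% were marked in CC, 6.11% in the 8-cell list and 5.39% in TE. Of the ICM-only windows 38.2% had been marked in neither CC nor any of the 5 earlier SCNT lists, against 27.0% of the morula-only and 8.86% of the shared windows. A further 10.02% of the ICM-only windows were marked in CC and in none of the 5 SCNT lists before the morula.

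The blastocyst lineages divided the morula windows unevenly. Of the 167664 morula windows 42.9% were marked in both ICM and TE, 11.5% in ICM and not TE, 8.98% in TE and not ICM, and 36.6% in neither. The median morula fold of these classes was 3.77, 3.24, 3.18 and 2.96. The ICM list and the TE list were each compared with the same morula list, so what they have in common includes whatever is particular to that list.

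**Figure D3:**
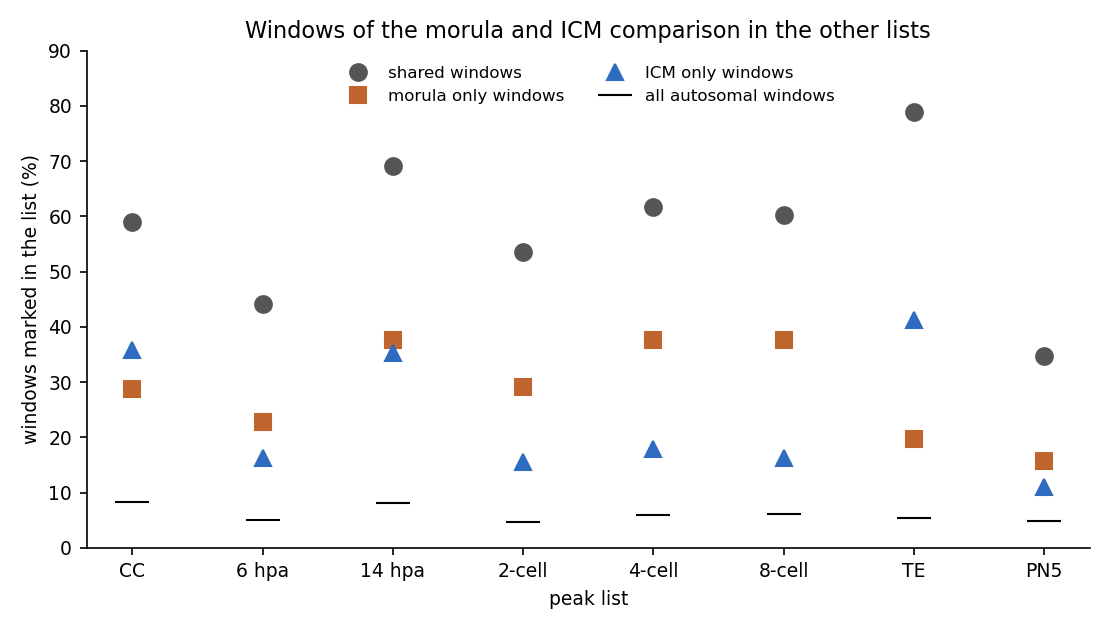
Share of windows (y axis, %) that are also marked in each of 8 other peak lists (x axis), for windows marked in both morula and ICM (circles), in the morula only (squares) and in ICM only (triangles). Dashes give the share of all autosomal windows. ICM-only windows lie at 16.3% in the 8-cell list and 41.2% in TE, and morula-only windows at 37.7% and 19.7%.

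Along the chromosomes, covered length was summed in 23987 bins of 100 kb. In 1225 bins (5.11%) the morula had at least 10 kb more than ICM, and in 79 bins (0.329%) ICM had at least 10 kb more. Of the 5 bins with the largest morula excess 4 lay on distal chromosome 4. The first, chr4:140300001-140400000, held no protein-coding gene and was covered over 65.5 kb in the morula and 18.4 kb in ICM, after 94.8 kb in CC, 95.2 kb at 6 hpa and 73.4 kb at the 8-cell stage. The next, chr4:153500001-153600000, had 72.0 kb in the morula and 26.1 kb in ICM, and its neighbour chr4:153400001-153500000, with the adhesion gene Ajap1, 64.1 and 18.5 kb. The bins chr4:131500001-131600000 and chr11:82300001-82400000, the latter with the chemokine gene Ccl1 and Tmem132e, had 59.6 and 57.0 kb in the morula and 15.4 and 13.7 kb in ICM. In each of these 5 bins TE was also below the morula, at 15.5 to 34.5 kb.

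The largest ICM excess was at chr8:123500001-123600000, a bin of 58.9% GC that includes Afg3l1, Dbndd1 and Gas8, where 7.10 kb was covered in the morula, 47.8 kb in ICM and 12.6 kb in TE. The other 4 bins had 39.9 to 41.6% GC. Of these, chr13:62300001-62400000 with Gm3604 had 24.7 kb in the morula and 50.7 kb in ICM, chr13:119400001-119500000 with Nnt, a mitochondrial transhydrogenase, and Paip1 had 13.1 and 38.5 kb, and chr5:104800001-104900000 with Zfp951 had 16.5 and 41.0 kb. A bin without protein-coding genes, chr13:66500001-66600000, had 25.5 and 49.8 kb. CC had 72.1, 51.8 and 84.5 kb in the bins of Gm3604 and Zfp951 and in the gene-free bin, more than any later list.

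Gene bodies were compared by the share of the annotated span in peaks. Of 20181 autosomal protein-coding genes of at least 1 kb, 8057 held a morula peak, 8248 an ICM peak and 10800 neither, and mean coverage was 4.03% in the morula and 3.31% in ICM. Coverage was at least 50 percentage points higher in the morula for 62 genes (0.307%) and in ICM for 30 genes (0.149%). With the morula list trimmed to the ICM length, the counts were 38 and 33 when peaks were removed by −log10 q and 36 and 40 when they were removed by fold, so the excess of morula genes was reduced in the first case and reversed in the second. The called genes were short. Their median length was 2928 bp for those higher in the morula and 2186 bp for those higher in ICM, against 18577 bp over all genes tested. Among 509 genes covered to at least 20% in both lists, the median log2 ratio of ICM to morula fold was 0.00.

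Of the 12 named genes higher in ICM, 4 encode Zfp zinc finger proteins. These were the only Zfp genes among all 30 called in ICM, of which 15 with Gm or Rik symbols were not open to naming. Of 385 Zfp genes, 4 were thus called in ICM and 0 in the morula, against 0.149% and 0.307% of all genes tested. Zfp445, a regulator of imprinted regions (chr9:122844529-122866006), was covered to 18.4% in the morula and 91.3% in ICM, with 14.8% at the 8-cell stage, 44.4% in CC and 78.8% in TE. Zfp263 was covered to 16.9% in the morula and 74.8% in ICM, Zfp747 to 0% and 74.7%, and Zfp646 to 0% and 55.3%. The related BTB zinc finger gene Zbtb39 went from 0% to 56.5%. The 4 zinc finger genes Zfp263, Zfp747, Zfp646 and Zbtb39 were covered to between 69.0 and 88.0% in TE in 3 cases and to 61.1% for Zfp646.

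The others named in ICM were of several kinds. BC005561 was covered to 7.27% in the morula and 70.7% in ICM. Csf2ra, the alpha chain of the GM-CSF receptor, went from 28.7% to 100%, and the intronless genes Ranbp6 and Taf7, the latter a subunit of TFIID, went from 6.43% to 58.2% and from 0% to 56.3%. Tdpoz2, which belongs to a family active in 2-cell embryos, went from 0% to 100% and was covered to 100% in TE. Copies of this family lie close in sequence, so reads may be shared among them. AK157302 and the hair keratin-associated gene Krtap24-1 reached 91.9% and 63.5% in ICM from no peak in the morula, and TE covered them to 0% and 5.33%.

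The 12 named genes higher in the morula included the pregnancy-specific glycoproteins Psg26 and Psg27, covered to 58.9% and 55.5% in the morula and to 1.20% and 5.04% in ICM, and the kallikreins Klk5, Klk12 and Klk1b3, covered to 56.2%, 61.4% and 76.5% in the morula and free of peaks in ICM. The olfactory receptor gene Olfr1415 went from 100% to 8.21% and Slurp2, which encodes a secreted Ly6-type protein, from 92.3% to 4.43%. The cytochromes Cyp11b2, the aldosterone synthase, and Cyp2d34 went from 59.9% to 4.01% and from 69.2% to 11.5%. The immune receptor genes Trem3 and Cd300c2 went from 59.2% to 7.66% and from 64.4% to 5.02%, and Tcl1b2 from 76.2% to 24.9%. TE covered each of the 12 to at most 36.9%, the value for Tcl1b2. At the 8-cell stage the 62 genes higher in the morula had a median coverage of 60.4%, and the 30 genes higher in ICM a median of 0%.

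The gene lists were described by counts at a difference of 10 percentage points, which 954 of all genes tested (4.73%) passed toward the morula and 385 (1.91%) toward ICM. Among 385 Zfp zinc finger genes, 81 were at least 10 points higher in ICM (21.04%, interval 17.3 to 25.4%) and 6 were at least 10 points higher in the morula. These 81 lay on 13 autosomes, and 77 of them lay outside the Zfp cluster of distal chromosome 4. With stricter thresholds, wider peaks or the trimmed morula lists, 81 to 91 were higher in ICM and 5 to 11 in the morula. In TE, 72 of the 81 were also at least 10 points above the morula. The median difference was 0.245 points over the list and 0 over all genes.

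Within the zinc finger genes the largest coding exon was on average more densely covered than the rest of the gene, though not by the median. For 356 of them the largest coding exon, which usually encodes the zinc finger array, was at least 500 bases long, with a median of 1444.5 bases. It was covered at least 50% in the morula for 122 genes (34.3%) and in ICM for 154 (43.3%). It passed 50% in ICM only for 40 genes and in the morula only for 8, whereas among 7747 such exons of all protein-coding genes 2.41% did so in ICM only and 4.41% in the morula only. Mean coverage of the exon was 32.2% in the morula and 43.5% in ICM, and that of the rest of the gene 6.94% and 11.7%. Median coverage of the exon was 0% in the morula and 1.14% in ICM, below the 0.761% and 3.25% of the rest. The higher means thus come from a part of the exons. Of the 40 exons 38 were covered at least 50% in TE, 27 in CC and 3 at the 8-cell stage. This measure was added after the gene values were seen, and finger arrays are similar between genes, so reads may be shared among copies. Zfp809, which directs TRIM28 to retroviral primer binding sites, went from a coverage of 4.38% in morulae to 52.5% in ICM, with 64.4% in TE.

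Several other gene families went the other way, set against 4.73% of all genes tested toward the morula and 1.91% toward ICM. Of 54 prolactin, Psg and cathepsin genes of the placenta, 17 were at least 10 points higher in the morula and 0 in ICM, and their summed coverage was 19.9% and 8.88%. Of 93 Cyp genes 22 were higher in the morula and 1 in ICM, of 1086 olfactory receptor genes 122 and 20, of 206 vomeronasal type 1 receptor genes 32 and 8, of 60 Serpin genes 9 and 0, and of 10 Speer genes 6 and 0. Serpina6, which encodes the corticosteroid-binding globulin, went from 71.2% to 29.6%. Members of these families are similar in sequence, and the authors' handling of reads that map to several places is not given in the sources used here. The lists had no minimum length, unlike all genes tested, and some receptor genes are shorter than 1 kb, such as Olfr356 at 948 bp. Counts with the trimmed morula lists were not made for these families, so the part of the longer morula list in their direction was not tested. Of 22 major urinary protein genes 10 were higher in the morula and 8 in ICM, with no common direction. Some lists had more genes in ICM, as the Zfp genes did. Of 56 clustered protocadherin genes 4 were higher in ICM and 0 in the morula, of 67 replication-dependent histone genes 3 and 0, and of 40 imprinted genes 8 and 4.

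Of 39 Hox genes, which pattern the body axis, 34 had no peak in either list, and none was covered at least 10 points more in ICM. Hoxa6 was covered to 42.6% in the morula and Hoxb3 to 25.9%, and ICM covered them to 0% and 4.32%. At the 8-cell stage both had been covered further, to 63.6% and 64.8%. The morula values of these genes therefore lay between those of the 8-cell and the ICM lists.

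Lists of lineage genes were set beside all genes tested, of which 10800 of 20181 had no peak in either list. Of 22 ICM and epiblast regulators, among them Pou5f1, Nanog and Sox2, 21 had no peak in either list, and the other was Esrrb. Of 22 trophectoderm regulators and epithelial genes 19 had none, the others being Cdx2, Fgfr2 and Cldn4, of 14 primitive endoderm genes 6 and of 14 cumulus and granulosa cell genes 9. At a difference of 10 points, 1 gene of the trophectoderm list was higher in ICM, and no other gene of these 4 lists passed in either direction. The summed coverage of the trophectoderm list was 9.62% in the morula and 5.02% in ICM. Lists of 14 to 22 genes are too small for such counts to be set apart from those of all genes. The promoter of Bmp4, a signalling ligand on the trophectoderm list, was marked in ICM only, with 7.80% of it in peaks. The label of the ICM group could not be checked from these genes, since a peak of a repressive mark is not a measure of expression.

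**Figure D4:**
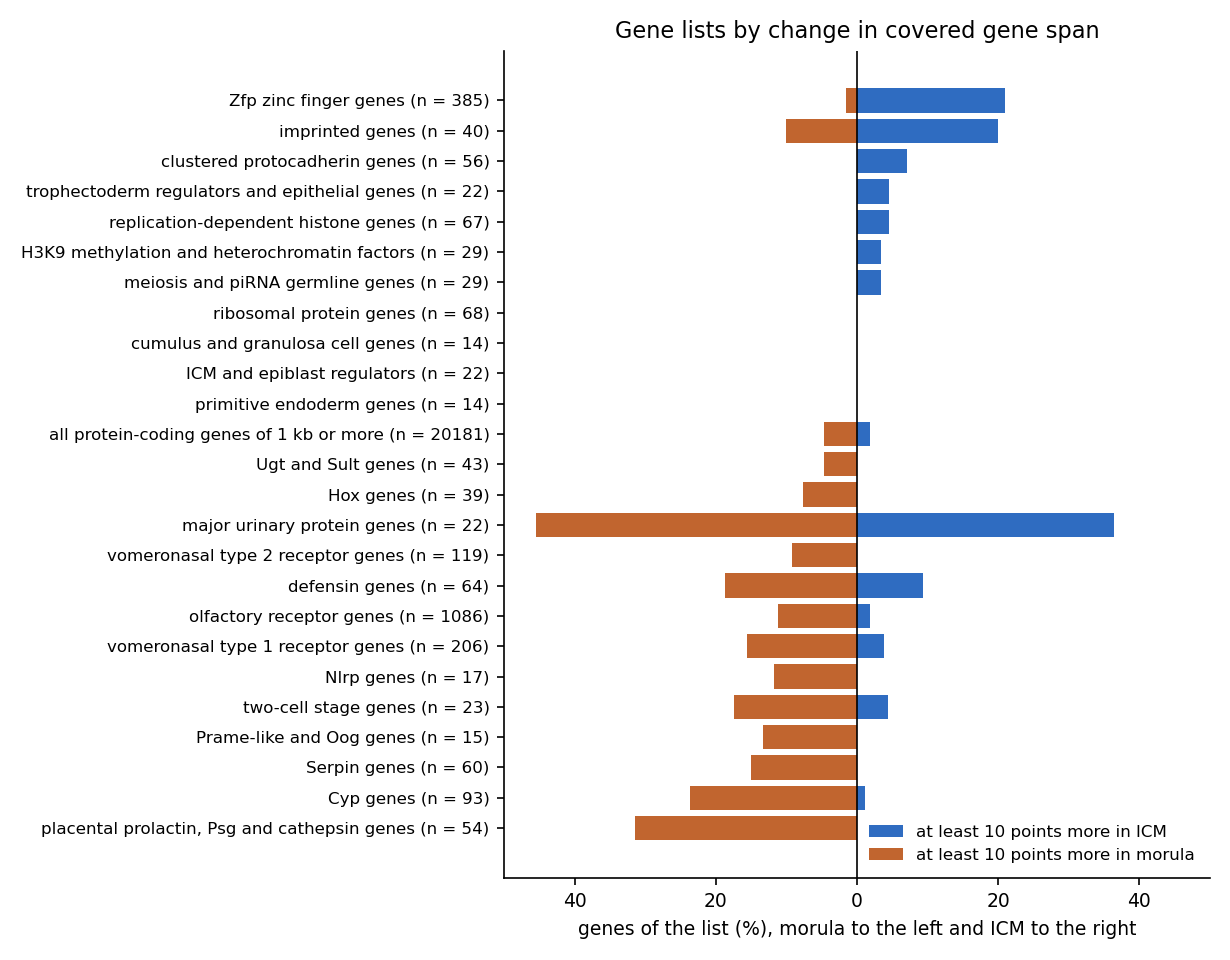
Share of genes of each list (x axis, %) whose span was covered at least 10 percentage points more in the morula (left) or in ICM (right), with the number of autosomal genes of each list (y axis). Lists of at least 14 genes are shown. Of the Zfp zinc finger genes 81 of 385 lie to the right and 6 to the left, and of the placental genes 17 of 54 lie to the left and 0 to the right.

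Promoters, the bases within 1 kb of the annotated start, were taken as marked if 50% or more of the promoter lay in a peak or 50% or more of a peak lay in the promoter. Of 20807 promoters 1064 were marked in the morula (5.11%, interval 4.82 to 5.42%) and 832 in ICM (4.00%, 3.74 to 4.27%). In the morula only, 605 were marked (2.91%), and in ICM only 373 (1.79%), with 459 in both. With the morula list trimmed to the ICM length, 371 were marked in the morula only and 478 in ICM only when it was trimmed by −log10 q, and 374 and 505 when by fold, so the direction of this split turned. Of the ICM-only promoters 48.0% were marked in TE and 23.6% at the 8-cell stage, and of the morula-only promoters 20.7% and 57.2%.

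The direction depended on the CpG class of the promoter. Among 6591 low-CpG promoters 525 were marked in the morula only (7.97%) and 177 in ICM only (2.69%). With the morula list trimmed to the ICM length, these counts were 317 and 254 by −log10 q and 320 and 269 by fold. Among 10385 high-CpG promoters the order was the opposite, with 21 in the morula only (0.202%) and 109 in ICM only (1.05%). In all, 74 high-CpG promoters were marked in the morula and 162 in ICM (0.713%, interval 0.568 to 0.894%, and 1.56%, 1.34 to 1.82%), although the ICM list was the shorter. The count in ICM only exceeded that in the morula only in each of the 7 alternatives tried, which gave 33 to 184 and 3 to 29 promoters. The TE list marked 207 high-CpG promoters (1.99%) and the 8-cell list 108 (1.04%).

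Among the 10 named promoters marked in ICM with no morula base, 4 were high-CpG: Ttll1, a tubulin polyglutamylase subunit (peak fold 5.56), Ppia, which encodes cyclophilin A (4.25), Ptprs, a receptor tyrosine phosphatase (4.24), and Serinc1 (4.16). The peaks were often narrow, covering 10.1% of the Ttll1 and 14.9% of the Ptprs promoter but 56.8% and 60.5% of those of Ppia and Serinc1. The others were Pla2g5, with the highest fold (6.47), Btnl1, Zfp872, Zfp981, Smap2 and Tdpoz2. The 10 named promoters marked in the morula with no ICM base had none of the high-CpG class. They belonged to chemosensory receptor genes (Vmn1r124, Olfr656, Olfr885, Olfr1413), the defensin Defa35, the interferon-inducible Ifi207, the oocyte gene Omt2b, Cd300e, Itprid1 and AC117239.2, with folds from 3.67 to 4.95.

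Promoters of meiosis and piRNA genes gained the mark more often than they lost it. Of 29 autosomal genes, 11 were marked in ICM only (37.9%, interval 22.7 to 56.0%), 0 in the morula only (upper limit of the interval 11.7%), 4 in both and 14 in neither, set against 1.79% of all promoters marked in ICM only. In total 4 were marked in the morula and 15 in ICM. Peaks covered 11.2 to 82.1% of the 11 promoters, with a median of 28.0%, and their folds ran from 2.35 to 4.57 with a median of 2.70. That median lay below the lower quartile of all autosomal ICM peaks, 2.72, whose median was 3.01. Of the 11, 10 had no morula base in the promoter, and 8 were high-CpG. The list was assembled with earlier results of these data known, so its count describes these genes and is not independent support. The count was 4 to 14 in ICM only and 0 in the morula only in the 7 alternatives, with 4 when peaks had to cover at least 50% of the promoter.

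By role, the piRNA pathway gave 5 of the 11. The promoter of Tdrkh, a Tudor-domain scaffold, was covered to 82.1% in ICM and that of the helicase Ddx4, the mouse Vasa, to 61.3%. The helicase gene Mov10l1 had 55.02%, Mael, a factor of piRNA biogenesis, 28.0%, and Tdrd1 24.5%. In the morula all 5 were at 0%. The meiotic chromosome genes were represented by Dmc1, the recombinase, at 25.5%, Sycp3, a component of the synaptonemal complex, at 21.2%, and Hormad1 at 11.2%, again after 0% in the morula. Dazl, an RNA-binding regulator of germ cells, had 16.9%, the sperm ADP/ATP carrier Slc25a31 45.7%, and the germ cell surface gene Tex101, which alone had morula bases, 12.9% in the morula and 68.8% in ICM. The 4 marked in both lists were Sycp2, Stag3, Tdrd9 and Dpep3, of which Sycp2 went from 8.45% to 46.5% and Dpep3 from 40.3% to 23.6%. Among those without a mark in either list were Piwil1, Piwil2, Rec8 and Spo11.

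The same promoters were followed through the other lists. Of the 29, 21 were marked at 6 hpa, 8 at 14 hpa, 6 each at the 2-cell and 4-cell stages, 4 each in 8-cell embryos and morulae, 15 in ICM and 16 in TE, and 10 had been marked in CC. Over all promoters the share fell from 29.9% at 6 hpa to 8.59% at 14 hpa, 6.39% at the 2-cell, 6.10% at the 4-cell and 6.80% at the 8-cell stage, and then to 5.11% in morulae, 4.00% in ICM and 4.13% in TE. High-CpG promoters, the class of 8 of the 11, changed in the same direction as the germline list. They began with 41.1% at 6 hpa, 6.48% at 14 hpa and 1.04% in 8-cell embryos. Morulae had 0.713%, ICM 1.56% and TE 1.99%. The direction of the fall and of the later rise was therefore not particular to the germline genes, but the extent of the rise differed. In ICM and TE the high-CpG share stayed below the 4.63% of 2-cell embryos. The germline share went from 13.8% in morulae to 51.7% in ICM, above the 20.7% of 2-cell embryos. Of the 11 promoters marked in ICM only, 10 were marked in TE, 4 in CC and 2 at the 8-cell stage. Dazl was the exception in TE, with no peak there.

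**Figure D5:**
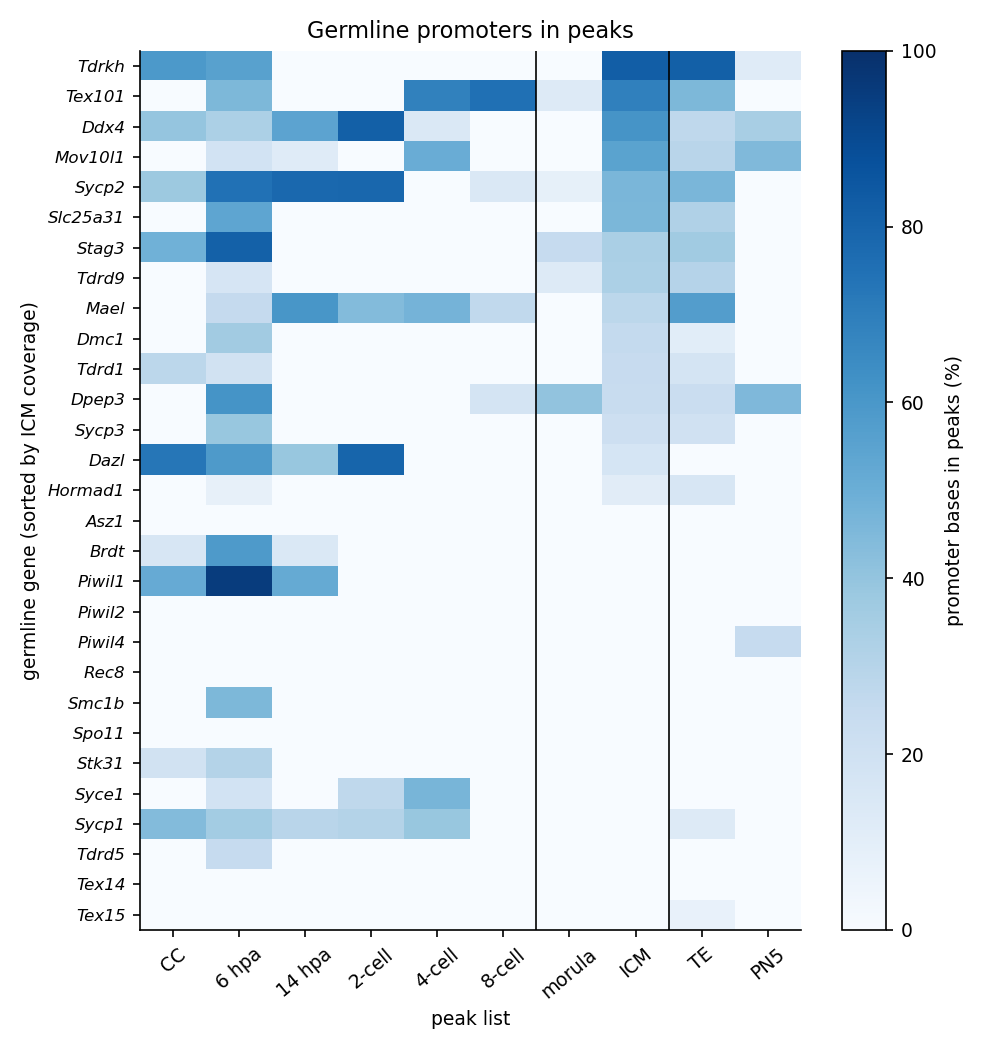
Share of each germline promoter in peaks (colour, 0 to 100%) for 29 genes (rows, ordered by ICM coverage) in the 10 peak lists (columns); vertical lines enclose the morula and ICM. In the morula 4 promoters are marked, and in ICM 15 are.

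In the 250 bases before the RefSeq start, the E-box CACGTG, a palindrome, was present in 7 of these 11 promoters and in 13 of the 26 germline promoters that matched the RefSeq table. Over all 15687 matched promoters 6.83% held it, and over high-CpG promoters 9.12%. Among 85 matched high-CpG promoters marked in ICM only, 22.4% held it (interval 14.8 to 32.3%). These 85 include the 8 high-CpG promoters of the 11, so the shares of the 11 and of the 85 are not independent. TCCCGC on either strand was present in 5 of the 11 promoters, in 31.8% of the high-CpG promoters marked in ICM only and in 35.1% of all high-CpG promoters. The motifs were chosen with the genes known, and a match is a description of letters, not of binding.

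Of 40 imprinted genes, 12 had a promoter marked in both lists, 1 in the morula only and 1 in ICM only, and the others were marked in neither. Over all promoters 459 of 20807 were marked in both. The promoters of Peg10, Zrsr1, Airn and Kcnq1ot1 were covered to 100% in the morula and to 72.4%, 100%, 93.0% and 100% in ICM, and that of Peg3, a zinc finger gene expressed from the paternal allele, to 76.0% and 89.9%. The H19 promoter, of the maternally expressed noncoding RNA, was covered to 69.5% in the morula and 44.4% in ICM and was the 1 marked in the morula only. The promoter of Inpp5f, at 36.5% and 51.7%, was the 1 marked in ICM only. Mirg, in the Dlk1 to Dio3 region, had a promoter covered to 100% in the morula and 13.0% in ICM. The parental alleles were not separated in these lists. Among the 23 genes of the 2-cell stage, Duxf3 was covered to 100% in both lists, while Usp17lb went from 65.7% to 0%.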

How the data were processed

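H3K9me3 was profiled by native chromatin immunoprecipitation on MNase-digested chromatin with an Active Motif antibody. According to the study's methods and the submitters' processing notes, reads were trimmed (cutadapt 1.16), aligned to mm10 with BWA mem, merged over the libraries of a group with SAMtools, freed of PCR duplicates and reduced to an equal read number with Picard, and called as broad peaks over input with MACS2. The threshold of MACS2 is not given in the sources used here. The deposited peak lists give for each peak a fold (a ratio of precipitate to input) and a −log10 q value, computed by the authors. The deposited score and −log10 p columns were not used. The read number of the precipitates was equal, but the depth of the input pools is not given in the sources used here, and the spread between libraries is lost.

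From these lists, autosomal peaks were compared in 1-kb windows (marked at 50% coverage), gene spans of at least 1 kb (called at a difference of 50 percentage points) and promoters (1 kb either side of the start), with GENCODE M21 on GRCm38.p6, Python 3.11.15, numpy 2.4.6, pandas 2.3.3, scipy 1.17.1 and matplotlib 3.10.9. High-CpG promoters held a 500-bp window (step 10 bp) with an observed to expected CpG ratio above 0.75 and at least 55% GC, and low-CpG promoters none above 0.48. Named genes were the 12 called genes in each direction with the largest difference in covered bases and the 10 promoters of highest fold with no base in the other list, leaving out Gm and Rik symbols, with the 5 bins in each direction of largest difference and the leading peaks. The scripts were tested on simulated data. The members and lists were chosen with earlier results of these data known. The coding exon, promoter motif and list-under-alternatives counts were chosen after seeing the data. Alternatives were thresholds on −log10 q, width, coverage and list length. The X, Y and mitochondrial chromosomes were left out of the comparisons.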

Additional observations from a re-analysis of the deposited data

Results flagged for a closer look

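Peaks outside the autosomes entered no comparison above. Chromosome X held 16585 morula peaks over 17.7 Mb and 13486 ICM peaks over 17.7 Mb, with a median fold of 2.99 and 3.03, so the ICM had fewer X peaks over nearly the same length. Chromosome Y held 594 morula peaks over 0.521 Mb and 676 ICM peaks over 0.728 Mb, at a median fold of 3.52 in both, although the nuclear donors were cumulus cells, which are female. The mitochondrial genome held 5 ICM peaks over 1996 bases, against 2 morula peaks over 439 bases. These are values of single pooled lists, the other lists of the series were not examined on these chromosomes, and their cause was not tested.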

How the results depend on the processing

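No paired analysis was possible because each group is 1 peak list called on merged libraries, which also prevented leaving out single replicates. The ratio of ICM to morula length was 0.910 with −log10 q of at least 2 and 0.867 with peaks of at least 1 kb. With such peaks 237 promoters were marked in the morula only and 129 in ICM only. With the morula list trimmed to the ICM length, the counts higher in or only in the morula were 38 genes and 371 promoters by −log10 q, and 36 genes and 374 promoters by fold. At 75% of a window, 49747 windows were marked in the morula only, and with no base in the other list 44655 in the morula only and 18954 in ICM only. Genes higher in the morula and in ICM numbered 215 and 77 at 30 points, 26 and 14 at 70 points, 14 and 9 at lengths of at least 5 kb, and 303 and 100 over all gene types. Promoters in the morula only and ICM only numbered 227 and 119 when 50% had to be covered and 400 and 217 within 250 bases of the start. Of 22 alternative splits, 19 had more in the morula and 3 more in ICM, namely promoters under both trims and genes under the trim by fold. The other trimmed splits had 51.2 to 53.5% in the morula. Outside the trims the morula list remained the longer, so direction and list length could not be told apart there. The splits also reuse the same 2 lists, and their tally is not a measure of robustness. The cause of the changes between settings was not tested. The ICM list rests on 2 libraries and the morula list on 6, so differences between groups and between libraries cannot be told apart.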
